A study of Mus musculus with 18 samples.

Results

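Cytokine-treated pancreatic islets of knockout (KO) mice, which carry no intact copy of the zinc transporter gene Slc30a8, were compared with equally treated islets of heterozygous (Het) mice, which carry 1 intact copy. The comparison took 6 of the 18 libraries of the series, 3 KO and 3 Het, chosen by their genotype and treatment labels, and the 17590 of 55536 listed genes that passed a filter on low counts. Every mouse was a male of 17 weeks with the scid mutation of Prkdc on the NOD background (NOD.CB17-Prkdcscid/NCrCrl), so that controls and mutants alike lacked mature T and B lymphocytes. Islets were freed by digestion, separated on a density gradient and cultured overnight, and both groups then received TNF-α at 100 pg/ml, IL-1β at 150 pg/ml and IFN-γ at 10 pg/ml over 24 h. KO and Het islets without cytokines served as a second pair, and wild type (WT) islets of both treatments entered the fit and are given as further levels. The labels do not say which part of Slc30a8 is deleted. Separate mice are not stated for the 3 libraries of a group, nor shared ones for treated and untreated islets, so each p-value reflects the spread among these samples, which may be technical.

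Slc30a8 encodes zinc transporter 8 (ZnT8), which sits in the membrane of the insulin granule and loads it with zinc, where zinc holds insulin in hexamers that crystallise. The 3 cytokines are those that immune cells release around islets in type 1 diabetes. In beta cells they act through NF-kB and interferon signalling, induce nitric oxide synthesis and chemokines, and weaken glucose-stimulated secretion. Isolated islets also hold alpha, delta and PP cells, endothelial cells, fibroblast-like cells and macrophages, and carry over some of the exocrine acinar and duct cells that surround them in the pancreas.

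The 3 KO libraries held 28989342, 22990164 and 25540321 reads assigned to genes, and the 3 Het libraries 25743569, 27554292 and 28137367, within a range of 22990164 to 29946680 over all 18. The 10 beta cell markers had a summed level of 161605 to 204318 CPM (read counts scaled to the size of the library) in KO and 154092 to 182693 CPM in Het islets, and no beta, alpha or delta marker was at 0. Of 14 lymphocyte markers 3 passed the low-count filter. These summed to 1.301 to 1.55 CPM in KO and 1.162 to 2.59 CPM in Het islets. The T cell gene Cd3d and the B cell gene Ms4a1 were at 0 in all 6 libraries. In the untreated pair Het replicate 1 stood apart, to which limma gave a quality weight of 0.2306, the lowest of the 18. Untreated KO replicate 3 had the next lowest weight, 0.4795. Its 3 tested lymphocyte markers summed to 19.9 CPM, against 3.07 and 2.27 CPM in untreated KO replicates 1 and 2. Its macrophage markers summed to 517 CPM, against 196 and 212 CPM. The cause was not tested. The 6 cytokine-treated libraries had weights between 0.5896 and 3.006.

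Over all genes, the quasi-likelihood test of edgeR, adjusted by Benjamini and Hochberg's method, called 0 of 17590 genes (0%) different between KO and Het islets with cytokines, and the smallest adjusted p was 0.062, that of Muc4. At an unadjusted p under 0.05, 949 genes were lower in KO (5.4%) and 538 higher (3.06%). The 3 KO values lay below all 3 Het values for 1377 genes (7.83%) and above them for 1121 (6.37%). Estimates at least 2-fold apart numbered 280 on the lower and 120 on the higher side, while the median log2 fold change over all genes was -0.00095. The other tools called some genes: DESeq2 called 56 (0.318%), 53 lower and 3 higher, and limma voom with quality weights called 153 (0.87%), 117 lower and 36 higher, with 44 called by both. Of the DESeq2 calls 13 were acinar and 2 endothelial markers, and of the limma calls 21 and 2. The edgeR count became 1 without untreated Het replicate 1 (Dsg3) and 2 without untreated Het replicate 3 (Dsg3 and Muc4), and likewise 2 without WT replicate 1 or 3 of the cytokine-treated islets (Patj and Muc4 in both). None of these 4 libraries is in the comparison, and they enter only the filter, the scaling and the shared estimate of spread. Since no gene passed the main test, the values below describe these libraries, and log2 fold changes are KO over Het ± SE. Counts of list members below, by unadjusted p or by groups that do not overlap, stand beside these shares of all genes.

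**Figure D1:**
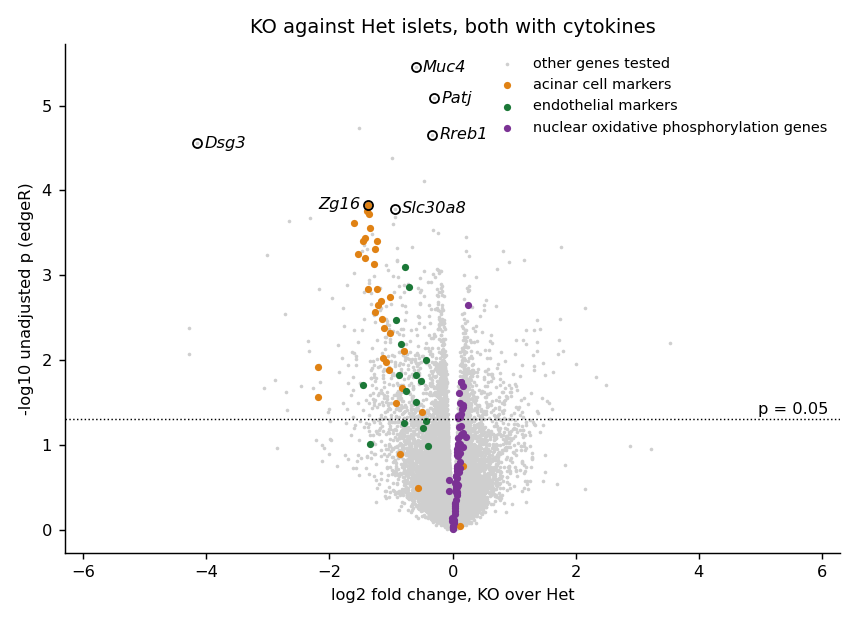
Log2 fold change of KO over Het islets, both with cytokines (horizontal axis), against -log10 of the unadjusted edgeR p (vertical axis) for each of the 17590 genes tested, with acinar, endothelial and nuclear oxidative phosphorylation genes in colour. Acinar markers gather near -1.22, oxidative phosphorylation genes near 0.07, and Muc4 stands highest with an adjusted p of 0.062.

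The targeted gene was lower in each KO library, as labelled, while it does not tell Het from WT islets. Slc30a8 (ENSMUSG00000022315, on the plus strand of GRCm38 chromosome 15 from 52295553 to 52335798) had 20.8, 23.2 and 20 CPM in KO and 32.1, 34.3 and 56.6 CPM in Het islets, from 591, 518 and 521 reads in KO and 830, 941 and 1584 in Het libraries. All 3 KO libraries lay below all 3 Het libraries, and Het replicate 3 stood well above the other two. The difference was -0.94 ± 0.19 (edgeR adjusted p = 0.273, DESeq2 0.00152, limma 0.0397), against -1.17 ± 0.18 in untreated islets, where the adjusted p was 0.09999. WT islets had 34.5, 43.7 and 46.4 CPM with cytokines, among the Het values. Untreated, the mean was 111 ± 15.2 CPM in Het and 116 ± 14.5 CPM in WT islets (SD, n = 3 each), again with overlapping libraries. Reads of the gene were present in KO islets, and counts per gene do not tell reads of the deleted part from the rest.

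The other zinc exporters of the Slc30 family did not share one direction. Beside Slc30a8, 8 of 9 listed were tested, of which 2 were higher and 2 lower at an unadjusted p under 0.05. Slc30a3, which fills synaptic vesicles with zinc, had 0.0353, 0 and 0.115 CPM in KO and 0.387, 0.328 and 0.643 CPM in Het islets. All of these values are close to 0, so the difference of -3.02 ± 0.70 rests on few reads (limma adjusted p = 0.0397). Slc30a5 and Slc30a7, which supply zinc to enzymes of the secretory pathway, stood at 0.12 and 0.12, and Slc30a2 at -1.34. Of 13 zinc importers tested of 14 in the Slc39 family, 1 was lower and 0 higher, against 5.4% and 3.06% of all genes tested. That one was Slc39a8, a manganese and zinc importer that NF-kB induces, with 11.96, 12.6 and 8.56 CPM in KO and 15.2, 12.7 and 15.5 CPM in Het islets (-0.39 ± 0.13). Slc39a5 was near 0 in all 6 libraries, at 0.0705 to 0.135 CPM in KO and 0.107 to 0.542 CPM in Het islets.

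Metallothioneins bind zinc in the cytosol and rise when it does. Mt3, known best from brain, had 9.84, 11.1 and 6.99 CPM in KO and 5.499, 5.29 and 6.18 CPM in Het islets, so that the groups did not overlap (0.72 ± 0.17, edgeR adjusted p = 0.306, DESeq2 0.0382). Mt1 had 328, 367 and 407 CPM in KO and 572, 368 and 407 CPM in Het islets, and Mt2 had 315, 360.4 and 389 CPM in KO and 491, 340.5 and 372 CPM in Het islets. In both genes Het replicate 1 was the highest library and the rest overlapped, with -0.29 ± 0.16 for Mt1 and -0.18 ± 0.15 for Mt2. Over the 5 tested of 6 listed metallothionein and zinc sensor genes, 1 was higher and 0 were lower.

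The broadest pattern lay in genes of exocrine acinar cells, which make the digestive enzymes. Of 40 listed markers 34 were tested, 30 of them were lower in KO islets at an unadjusted p under 0.05 and 0 higher, 27 had KO values wholly below Het values, and the median was -1.22. By DESeq2 13 passed and by limma 21, all lower. The Amy2a1 to Amy2a4 amylase copies were at 0 in all 6 libraries. The markers together took 0.0981%, 0.198% and 0.271% of the counts in KO libraries, against 0.538%, 0.388% and 0.351% in Het libraries. The means were 0.189% ± 0.0867 in KO and 0.426% ± 0.0993 in Het islets (SD, n = 3 each), and an exact two-sided permutation test gave p = 0.1, the smallest that 3 libraries against 3 allow. WT islets with cytokines had 1.07% ± 0.28. In a bulk sample, fewer acinar cells and less of their RNA per cell cannot be told apart.

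Among single acinar genes, the zymogen granule lectin Zg16 had 3.07, 5.02 and 5.798 CPM in KO and 13.9, 12.8 and 9.22 CPM in Het islets (-1.37 ± 0.27, edgeR adjusted p = 0.273). Elastase Cela1 had 45.8, 91.8 and 96.2 CPM in KO and 270.4, 176 and 154 CPM in Het islets (-1.36 ± 0.28). KO replicate 1 was the lowest library for both, and the same held for trypsin Try4, with 9.81, 24.04 and 22.7 CPM in KO and 56.5, 47.03 and 43.5 CPM in Het islets (-1.39 ± 0.28). Trypsin Prss2 showed it too, with 96.8, 195 and 231 CPM in KO and 525, 370.2 and 312 CPM in Het islets (-1.21 ± 0.33). Trypsin and amylase genes have near-identical copies, so reads may be split between them. Rbpjl, a transcription factor of acinar cells, stood at -2.18 and Nr5a2 at -0.79, while the transcription factor Ptf1a was at -0.56, Bhlha15 at 0.17 and the mucin-like Dmbt1 at 0.12, each of these 3 with an unadjusted p above 0.05.

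Since the acinar genes were lower together, the promoters of 3 of them are shown. RefSeq promoter sequences (GRCm38.p6, 300 bases that span the start of the gene) matched 26 of the 34 tested markers with 28 promoters, since a gene can have more than one. The letters TTCCCA, a core of sites bound by RBPJ-type factors such as the one Rbpjl encodes, were searched on both strands, TGGGAA being the same site read from the other strand. They occurred in 15 of these 28 promoters (53.6%) and in 8397 of all 32851 promoters of the same length (25.6%). The overlapping letters TTTCCC, or GGGAAA on the other strand, were searched first and occurred in 9 of the 28 (32.1%) and in 8294 of all promoters (25.2%). Trypsin, elastase and lipase genes share ancestry, and a match is a description of letters, not of binding. The 3 markers of smallest p that hold the letters are the secretory granule protein syncollin Sycn (chr7:28540635-28540934, plus strand, -1.60), the carboxyl ester lipase Cel (chr2:28563354-28563653, minus strand, -1.34) and the chymotrypsinogen Ctrb1 (chr8:111690961-111691260, minus strand, -1.42). Capitals mark the letters in each sequence, written 5′ to 3′ on the strand of the gene.
Sycn: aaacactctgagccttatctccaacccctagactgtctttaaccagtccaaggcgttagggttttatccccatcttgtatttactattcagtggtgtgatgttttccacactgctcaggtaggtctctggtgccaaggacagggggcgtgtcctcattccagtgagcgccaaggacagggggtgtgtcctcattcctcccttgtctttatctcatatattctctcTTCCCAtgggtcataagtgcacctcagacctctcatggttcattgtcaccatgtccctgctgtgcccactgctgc
Cel: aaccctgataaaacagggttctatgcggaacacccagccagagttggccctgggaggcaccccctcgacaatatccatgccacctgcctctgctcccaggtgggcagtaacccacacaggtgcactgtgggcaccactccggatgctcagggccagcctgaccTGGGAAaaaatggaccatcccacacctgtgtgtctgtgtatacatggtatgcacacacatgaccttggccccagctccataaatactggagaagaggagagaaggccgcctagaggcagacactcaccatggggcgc
Ctrb1: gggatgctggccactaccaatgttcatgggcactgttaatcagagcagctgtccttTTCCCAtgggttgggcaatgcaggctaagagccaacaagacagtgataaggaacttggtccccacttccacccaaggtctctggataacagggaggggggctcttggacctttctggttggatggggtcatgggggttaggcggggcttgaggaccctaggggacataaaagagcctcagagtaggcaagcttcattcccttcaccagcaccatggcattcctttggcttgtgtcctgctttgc

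Reg lectins, trefoil peptides and mucins, which epithelia secrete for protection and repair, lay on the same side. Acinar cells also express Reg genes, and Tff2 and Muc1 are in the duct list too. Of 12 tested of 13 listed, 10 were lower in KO at an unadjusted p under 0.05, 0 higher, and the median was -1.07. Reg1, Reg2, Reg3a, Reg3b, Reg3d and Reg3g stood between -1.72 (Reg3a) and -0.99 (Reg1), and the gastric trefoil peptide Tff2 had 0.564, 0.583 and 0.806 CPM in KO and 1.67, 1.896 and 1.86 CPM in Het islets (-1.46 ± 0.33). Duct markers followed with 8 of 16 lower, 0 higher and a median of -0.50. Their summed level was 4474 to 5774 CPM in KO and 5400 to 7011 CPM in Het islets. Keratin Krt19 had 25.1, 24.8 and 49.4 CPM in KO and 75.2, 80.7 and 49.6 CPM in Het islets, where KO replicate 3 came close to Het replicate 3 without overlap (-1.05 ± 0.32). With each library's log2 acinar marker level as a covariate, the median was -0.20 for the Reg, trefoil and mucin list and -0.19 for the duct list. Untreated, the same fit gave -0.14 and -0.71. Acinar level and genotype go together in the 6 cytokine-treated KO and Het libraries and cannot be told apart within them.

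Endothelial genes were a second cell type with lower values in KO islets. Of 16 tested, 11 were lower at an unadjusted p under 0.05, 11 did not overlap between the groups, all 16 estimates were negative, and the median was -0.73. Summed, they gave 352, 228 and 389 CPM in KO, against 591, 505 and 441 CPM in Het libraries, with no marker at 0. The VEGF receptor Kdr had 32.9, 23.4 and 40.4 CPM in KO and 66.02, 47.8 and 51.7 CPM in Het islets (-0.77 ± 0.19, edgeR adjusted p = 0.306, DESeq2 0.0171, limma 0.0347), and the sialomucin endomucin, Emcn, had 14.1, 10.7 and 16.1 CPM in KO and 25.1, 21.2 and 20.5 CPM in Het islets (-0.70 ± 0.18). The endothelial cadherin Cdh5 stood at -0.92, the fenestral diaphragm protein gene Plvap at -0.84 and von Willebrand factor, Vwf, at -1.45. With the acinar level as covariate the endothelial median was -0.68, but acinar level and genotype cannot be told apart in these libraries. The untreated pair had a median of -0.56 with 11 of 16 lower, against 8.99% of all genes tested. Its libraries are not used in this comparison, but the labels do not say whether treated and untreated islets share mice.

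**Figure D2:**
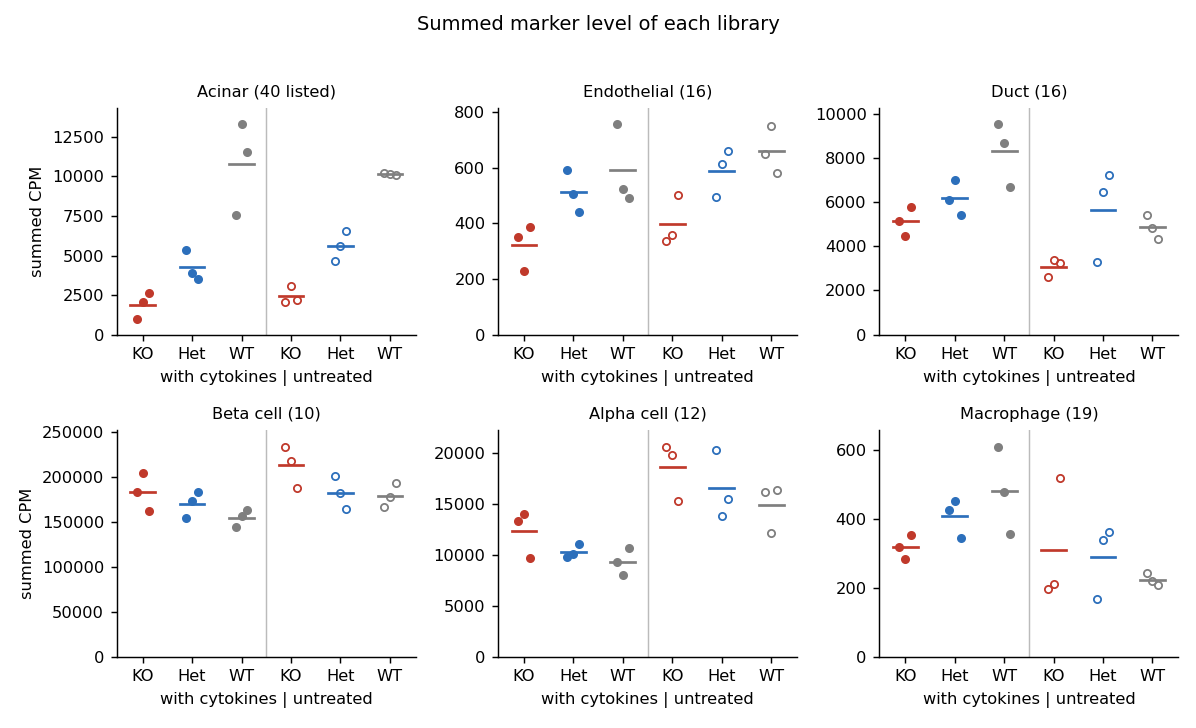
Summed CPM of the tested markers of 6 cell types in each library (points) with group means (lines), KO, Het and WT from left to right, cytokine-treated islets filled and untreated islets open. Of the 40 acinar markers listed, 34 were tested and enter the sum. Acinar sums with cytokines lie at 1003 to 2656 CPM in KO and 3529 to 5367 CPM in Het islets, and endothelial sums at 228 to 389 and 441 to 591 CPM in KO and Het islets.

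The remaining cell type lists had few members of small p. Stellate and mesenchymal markers summed to 663 to 2017 CPM in KO and 682 to 1374 CPM in Het islets, with 1 of 18 higher, 0 lower and a median of 0.13 that was -0.16 without KO replicate 3 and 0.30 without KO replicate 2. That member was smooth muscle actin Acta2, with 30.1, 16.3 and 54.2 CPM in KO and 10.2, 25.7 and 12.5 CPM in Het islets, where KO replicate 2 lay among the Het values (1.06 ± 0.46). Macrophage markers summed to 282 to 353 CPM in KO and 345 to 451 CPM in Het islets. Most single estimates went the other way, 15 positive and 4 negative, with a median of 0.13. At an unadjusted p under 0.05, 1 of 19 was higher and 1 lower. The fractalkine receptor Cx3cr1 was the higher one, with 2.29, 4.44 and 1.15 CPM in KO and 0.6196, 1.24 and 1.04 CPM in Het islets (1.42 ± 0.42), although KO replicate 3 lay among the Het values. The haemoglobin scavenger receptor Cd163 was the lower one, at -2.02 ± 0.90 and under 0.6 CPM in every library. Of 12 neutrophil markers 5 were tested. Retnlg was at 0 in every library of both groups, Elane and Ly6g in all 3 Het libraries, and Ngp in all 3 KO libraries. The calprotectin subunit S100a8, which epithelia also make under cytokines, had 197, 200.3 and 177 CPM in KO and 98.4, 197 and 177 CPM in Het islets and overlapped (0.28 ± 0.39). Of 3 tested lymphocyte markers 0 had an unadjusted p under 0.05.

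Beside Slc30a8 and the acinar genes, 6 further genes were named for their small p on the lower side. Muc4 (ENSMUSG00000079620; GRCm38 chromosome 16, 32735886 to 32782391, plus strand), a mucin anchored in the cell membrane, had 38.9, 40.1 and 40.6 CPM in KO and 56.3, 55.9 and 69.2 CPM in Het islets. Its KO libraries agreed closely and all lay below Het (-0.60 ± 0.08, edgeR adjusted p = 0.06202, DESeq2 2.95e-06, limma 0.00813). Untreated, Muc4 stood at -0.18 ± 0.08, and the difference between treatments was -0.42 ± 0.12 (unadjusted p = 0.00276). Patj (GRCm38 chromosome 4, 98395785 to 98719603, plus strand), a scaffold of the tight junction Crumbs complex, had 54.2, 52.5 and 56.1 CPM in KO and 68.2, 67.04 and 65.2 CPM in Het islets (-0.30 ± 0.05, edgeR adjusted p = 0.0719). Groups again did not overlap, and both varied little. Rreb1 (GRCm38 chromosome 13, 37778400 to 37952005, plus strand), a zinc finger transcription factor that binds Ras-responsive elements, had 39.8, 35.7 and 40.4 CPM in KO and 49.02, 49.8 and 47.2 CPM in Het islets (-0.33 ± 0.06, adjusted p = 0.09698).

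Dsg3, a desmosomal cadherin of stratified epithelia on chromosome 18, had the largest fold among the genes named. It stood at 0.5996, 0.135 and 1.04 CPM in KO and 6.85, 11.8 and 13.8 CPM in Het islets, from 17, 3 and 27 reads in KO and 177, 323 and 387 in Het libraries. The groups did not overlap in either unit (-4.15 ± 0.70, edgeR adjusted p = 0.0979, DESeq2 3.20e-05). WT islets with cytokines had 2.31, 1.88 and 1.29 CPM, above KO and below Het islets. Untreated libraries had 7, 16 and 25 reads in KO, 158, 629 and 1350 in Het and 42, 55 and 51 in WT islets, and there the gene passed the edgeR test between KO and Het (-5.39 ± 0.71, adjusted p = 0.0267). That call was lost without any one of untreated KO replicates 1 to 3 or Het replicates 2 and 3 (-5.76 to -4.54), with only the groups compared (-5.40) and with the acinar covariate (-4.89). Zfp750, a transcription factor of epidermal differentiation, had 1.48, 1.66 and 2.15 CPM in KO and 3.91, 3.57 and 3.002 CPM in Het islets (-0.98 ± 0.17), and Mlph, the melanophilin that couples Rab27a vesicles to myosin, had 20.95, 19.5 and 19.2 CPM in KO and 27.1, 28.5 and 26.3 CPM in Het islets (-0.46 ± 0.09). Neither overlapped between groups.

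With the acinar level as covariate these 6 genes stood at -0.60 (Muc4), -0.22 (Patj), -0.35 (Rreb1), -3.71 (Dsg3), -0.53 (Zfp750) and -0.48 (Mlph), and Slc30a8 at -0.96.

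**Figure D3:**
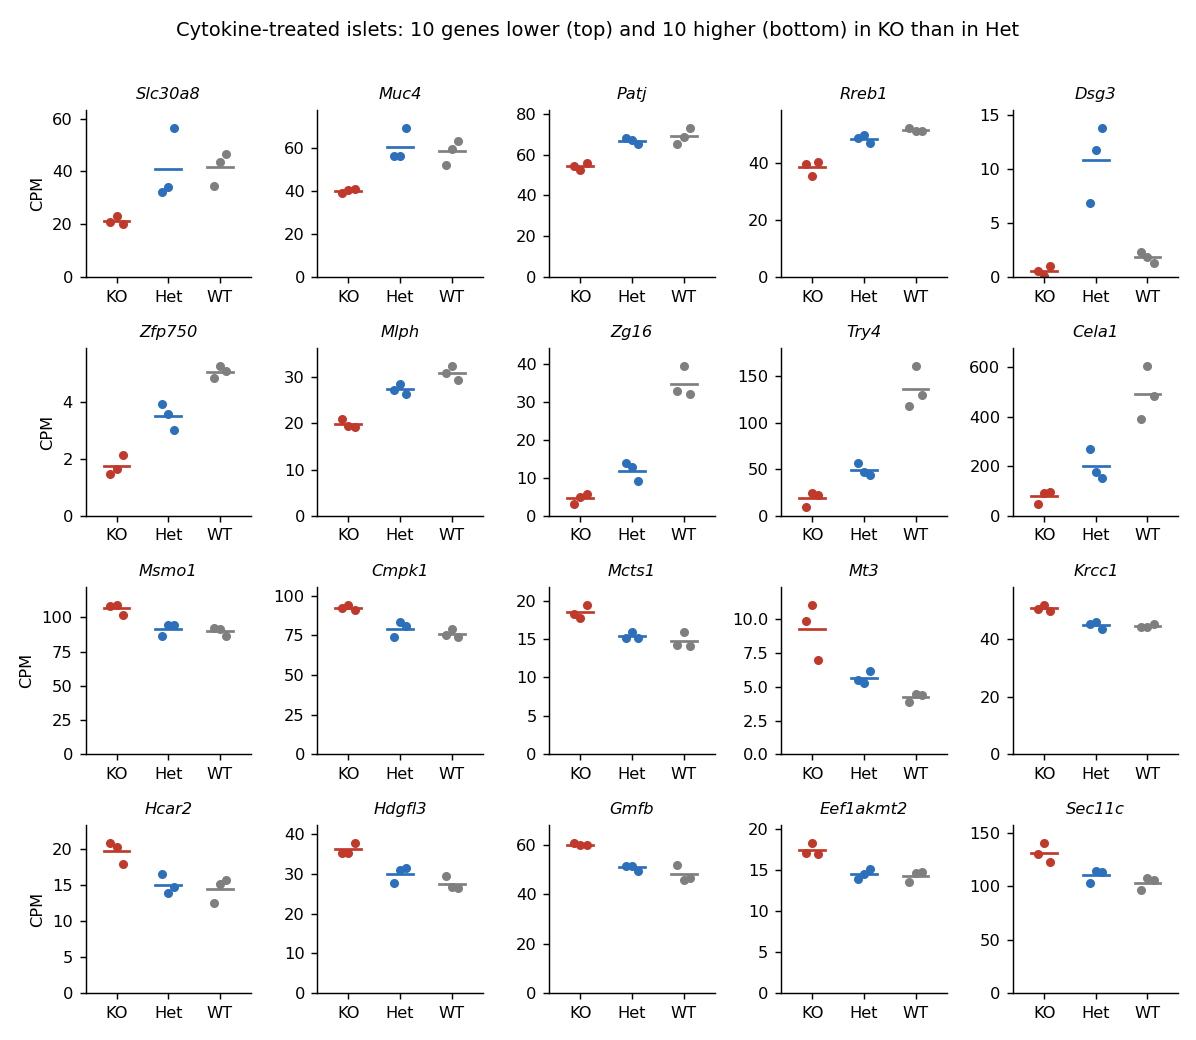
CPM of each cytokine-treated library (points) and group mean (lines) for the 10 genes of smallest p that were lower in KO than in Het islets (upper rows) and the 10 that were higher (lower rows), with KO, Het and WT from left to right and axes from 0. KO and Het points do not overlap in any panel, which the choice of genes required.

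The 10 genes named for their small p on the higher side mostly differed by less. Over all genes tested, 120 estimates were at least 2-fold higher. Msmo1, an oxidase of sterol synthesis, had 109, 109 and 102 CPM in KO and 86.5, 94.6 and 94.1 CPM in Het islets (0.22 ± 0.05, edgeR adjusted p = 0.2796, DESeq2 0.0211, limma 0.02302). Cmpk1, the kinase that makes UDP and CDP, had 92.1, 94.3 and 91.1 CPM in KO and 73.96, 83.3 and 80.7 CPM in Het islets (0.22 ± 0.05, adjusted p = 0.2796). Besides Mt3, these were the only higher genes that DESeq2 called. Hcar2, a receptor for hydroxybutyrate and niacin, had 20.8, 20.3 and 17.9 CPM in KO and 16.5, 13.9 and 14.8 CPM in Het islets (0.39 ± 0.10). Sec11c, a catalytic subunit of the signal peptidase that cuts preproinsulin and other secretory proteins, had 130.4, 140.3 and 123 CPM in KO and 103, 115 and 113 CPM in Het islets (0.25 ± 0.07). The others were the translation re-initiation factor Mcts1 (0.27 ± 0.06), the actin debranching factor Gmfb (0.24 ± 0.06), the elongation factor methyltransferase Eef1akmt2 (0.27 ± 0.07), Hdgfl3 (0.27 ± 0.07) and Krcc1 (0.18 ± 0.04). Apart from Mt3 and Hcar2 each of these 10 genes had an estimate of at most 0.27.

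Endocrine genes lay slightly on the higher side without passing by edgeR, and did so in the untreated pair as well. With cytokines, all 10 beta cell markers had positive estimates, and 1 had an unadjusted p under 0.05. Their median of 0.11 was 0.02 without KO replicate 2 and 0.18 without KO replicate 3. The marker of small p was G6pc2, the islet glucose-6-phosphatase, with 1858, 2047 and 1661 CPM in KO and 1550.1, 1475 and 1643 CPM in Het islets (0.25 ± 0.11). Insulin Ins2 had 110770.0, 122390.0 and 96988 CPM in KO and 94474, 105062 and 112207 CPM in Het islets, and Ins1 had 46219, 53994 and 42403 CPM in KO and 39126, 45712 and 48932 CPM in Het islets. Groups overlapped for both, with 0.08 ± 0.13 (95% interval -0.20 to 0.36) for Ins2 and 0.09 ± 0.12 (-0.16 to 0.34) for Ins1, and KO replicate 2 was the highest library in each. Amylin, Iapp, stood at 0.25 ± 0.12. Of 14 insulin and prohormone processing genes 1 was higher, 0 lower and 13 estimates were positive. The prohormone convertase Pcsk1, which makes the first cuts in proinsulin, had 805, 858 and 783 CPM in KO and 523, 720.1 and 678 CPM in Het islets (0.35 ± 0.11, edgeR adjusted p = 0.422). Its lowest KO library lay above its highest Het library.

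Glucose sensing genes gave 2 of 14 higher and 0 lower with a median of 0.10 (0.05 without KO replicate 2 and 0.15 without Het replicate 3), Cltrn (collectrin) being the other member with 229.6, 253 and 220 CPM in KO and 179, 207 and 209 CPM in Het islets (0.24 ± 0.09). The glucose transporter Slc2a2 had 23.5, 25.3 and 23.6 CPM in KO and 24.6, 18.1 and 20.8 CPM in Het islets (0.19 ± 0.23, interval -0.30 to 0.67). Among 14 beta cell transcription factors 0 were higher and 1 lower, Hnf4a at -0.21 ± 0.09, and Nkx2-2 stood at 0.20 ± 0.12. Granule exocytosis genes gave 1 of 16 higher, the SNARE protein gene Snap25 at 0.27 ± 0.12, and 0 lower. Of 14 genes that mature beta cells keep off or regain when they lose identity, 1 was higher and 0 lower. Their median of -0.15 changed sign to 0.14 without KO replicate 2 and was -0.42 without KO replicate 3. The higher gene, Gc, the vitamin D-binding protein, is also an alpha cell marker, while the glutathione transferase Mgst1 stood at -0.73 ± 0.39.

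Alpha cell markers had the largest median of the endocrine lists, 0.25, with all 12 estimates positive, 4 higher at an unadjusted p under 0.05 and 0 lower. Gc had 179, 172 and 157 CPM in KO and 112, 158 and 133 CPM in Het islets (0.33 ± 0.10, edgeR adjusted p = 0.3801, limma 0.0354), Irx2 stood at 0.36 and Pou3f4 at 0.56. Glucagon, Gcg, had 11863, 12554 and 8354 CPM in KO and 8610.5, 8892 and 9674 CPM in Het islets, where KO replicate 3 was the lowest of all 6 libraries (0.27 ± 0.19, interval -0.13 to 0.67). Somatostatin, Sst, had 4936, 5486 and 4021 CPM in KO and 4071, 4457 and 4589.7 CPM in Het islets (0.14 ± 0.16). Of 8 delta and PP cell markers 0 had an unadjusted p under 0.05, with peptide YY, Pyy, at 0.25 ± 0.18. In the fit with the acinar level as covariate, the medians were 0.00 for alpha, 0.01 for beta and -0.06 for delta and PP cell markers. Acinar level and genotype cannot be told apart in these libraries.

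The series title links ZnT8 dose to mitochondrial respiration. Of 76 nuclear genes of oxidative phosphorylation 13 were higher in KO at an unadjusted p under 0.05, 0 lower, and 11 lay wholly above Het. Among all genes tested 3.06% were higher and 6.37% lay wholly above Het. In the list 72 estimates were positive, with a median of 0.07 and a range of -0.06 to 0.25. The complex I subunit Ndufc2 had 69.98, 77.6 and 67.2 CPM in KO and 55.99, 63.5 and 61.5 CPM in Het islets (0.25 ± 0.07, edgeR adjusted p = 0.345), and the cytochrome oxidase subunit Cox8a had 143, 148 and 136 CPM in KO and 124, 127 and 135 CPM in Het islets (0.14 ± 0.05). Ndufa9 had 63.9, 63.1 and 54.7 CPM in KO and 58.4, 57.1 and 58.6 CPM in Het islets, with KO replicate 3 below all Het libraries (0.06 ± 0.06). Further members with an unadjusted p under 0.05 were the complex III genes Uqcrh, Uqcrc1, Uqcr10 and Uqcr11, between 0.11 (Uqcrc1) and 0.17 (Uqcr11). By DESeq2 0 passed and by limma 0. In untreated islets the same list had 1 higher, 3 lower and a median of 0.02, which was -0.02 without KO replicate 1. With cytokines the median was 0.04 without KO replicate 2, 0.12 without KO replicate 3 and 0.04 with the acinar level as covariate.

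Each of the 13 mitochondrially encoded genes had a positive estimate, with a median of 0.15, and 0 had an unadjusted p under 0.05. The median was 0.09 without KO replicate 3, 0.21 without KO replicate 1 and 0.30 with the acinar covariate. The complex I gene mt-Nd1 had 1894, 2158 and 2178 CPM in KO and 1963, 1766 and 1905 CPM in Het islets (0.15 ± 0.14, interval -0.16 to 0.45), and KO replicate 1 lay among the Het libraries. The ATP synthase gene mt-Atp6 stood at 0.30 ± 0.22 and the cytochrome oxidase gene mt-Co2 at 0.22 ± 0.17. Untreated, the median was -0.08, or 0.04 without Het replicate 1. Genes of the TCA cycle and pyruvate entry gave 2 of 19 higher and 0 lower, the dehydrogenase subunit Dld (0.13 ± 0.05) and the pyruvate carrier Mpc1 (0.16 ± 0.07). Of 17 genes of mitochondrial biogenesis and dynamics 1 was lower, the transcription factor Nrf1 (-0.13 ± 0.05), and 0 higher. Glycolytic genes gave 0 of 17 in either direction.

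**Figure D4:**
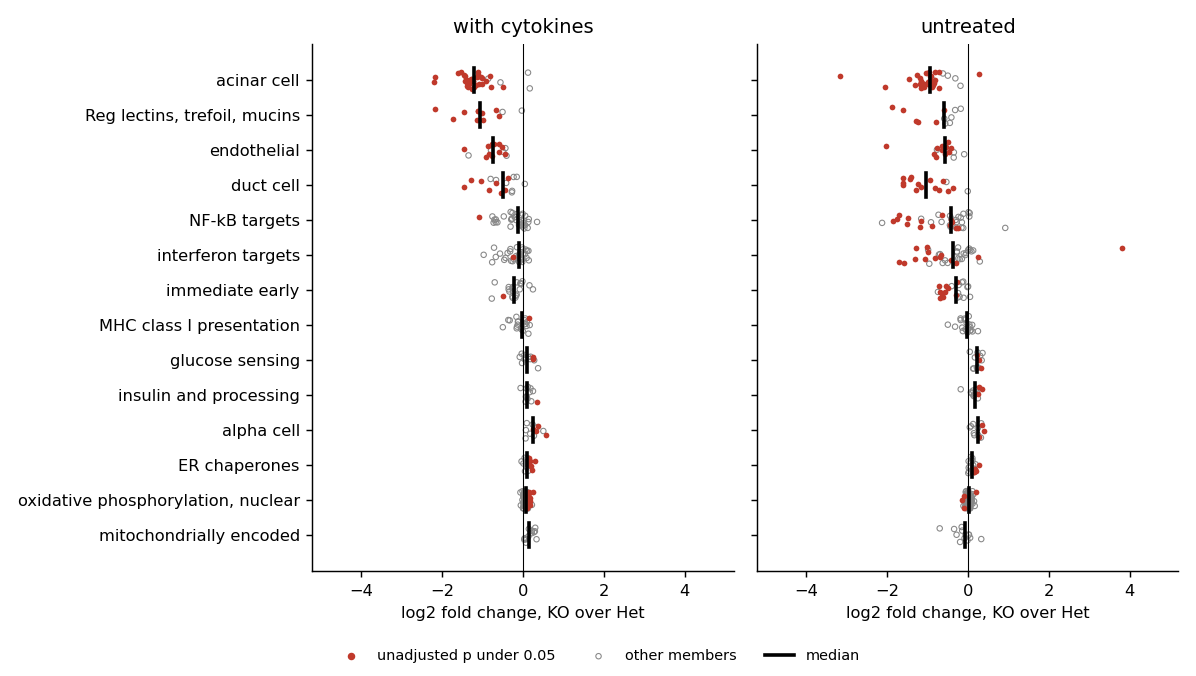
Log2 fold change of KO over Het islets for each tested member of 14 gene lists (points) with the list median (black bars), with cytokines on the left and untreated on the right; filled points had an unadjusted p under 0.05. The acinar median is -1.22 with cytokines and -0.94 untreated, the endothelial median -0.73 and -0.56, and the nuclear oxidative phosphorylation median 0.07 and 0.02.

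Genes that the cytokines induce had few members of small p between KO and Het islets. Of 36 NF-kB targets 10 had KO values wholly below Het values, against 7.83% of all genes tested. The median was -0.13 (-0.07 without KO replicate 2). At an unadjusted p under 0.05, 1 target was lower and 0 higher. The lower one was the neutrophil chemokine Cxcl2, with 20.1, 15.7 and 17.4 CPM in KO and 44.6, 33.2 and 35.4 CPM in Het islets (-1.09 ± 0.31, edgeR adjusted p = 0.366, limma 0.0397). The highest KO library lay below the lowest Het library. Cyclooxygenase Ptgs2 had 208, 113 and 254 CPM in KO and 321, 363 and 235 CPM in Het islets and overlapped (-0.67 ± 0.35). The inducible nitric oxide synthase Nos2 had 76.9, 85.3 and 55.2 CPM in KO and 64.8, 55.7 and 77.7 CPM in Het islets (0.13 ± 0.33, interval -0.58 to 0.84), and the mitochondrial superoxide dismutase Sod2 had 739, 755 and 706 CPM in KO and 687, 616 and 727 CPM in Het islets (0.12 ± 0.09). Colony-stimulating factor Csf3 had 97.5, 107 and 79.5 CPM in KO and 92.2, 75.9 and 112 CPM in Het islets (0.02 ± 0.18, interval -0.37 to 0.41). For these 3 genes the libraries of both genotypes overlapped.

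Of 22 tested chemokines 2 were lower and 0 higher, Cxcl17 being the other (-1.27 ± 0.44), and 7 lay wholly below Het. Among all genes tested 5.4% were lower, 3.06% higher and 7.83% wholly below Het. The chemokine median of -0.16 became 0.02 without KO replicate 2 and -0.41 without KO replicate 3. Cxcl10, an interferon-induced T cell chemokine, had 4.87, 3.41 and 4.88 CPM in KO and 4.57, 2.01 and 5.36 CPM in Het islets (0.14 ± 0.52). Of 36 interferon targets 1 was lower, the RNA sensor Ddx58 (-0.23 ± 0.09), and 0 were higher. Their median of -0.10 changed sign to 0.04 without Het replicate 3, and was -0.31 without Het replicate 2 and -0.33 with the acinar covariate. MHC class I presentation genes gave 1 of 21 higher, the loading chaperone Pdia3 (0.16 ± 0.06), and 0 lower. Of 15 tested acute phase and calprotectin genes 1 was higher, the acute phase protein Orm1 with 44.8, 36.8 and 52.3 CPM in KO and 25.98, 31.4 and 36.5 CPM in Het islets (0.51 ± 0.20), and 1 lower, the iron hormone hepcidin, Hamp, with 52.9, 46.3 and 50.9 CPM in KO and 56.1, 88.7 and 66.7 CPM in Het islets (-0.49 ± 0.23). Of 12 nitric oxide and arginine genes 3 were lower and 0 higher, among them the arginine transporter Slc7a1 (-0.14 ± 0.06) and arginase Arg2 (-0.70 ± 0.32).

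Endoplasmic reticulum chaperones, which fold proinsulin and other cargo, gave 6 of 20 higher, 0 lower and a median of 0.10. Of the 20, 9 lay wholly above Het, against 6.37% of all genes tested. Untreated, the list had 5 higher, 0 lower and a median of 0.11, where 5.91% of all genes tested were higher. Limma called 13 of the list untreated and 1 with cytokines. Of all genes tested it called 13% untreated and 0.87% with cytokines, both directions together. With the acinar level as covariate, the median was 0.05 untreated and 0.06 with cytokines. Sdf2l1 had 142, 142 and 122 CPM in KO and 108, 109 and 115 CPM in Het islets (0.29 ± 0.10), and Manf, a secreted survival factor of the folding response, had 367, 368 and 320.1 CPM in KO and 296, 318 and 311 CPM in Het islets (0.19 ± 0.07, limma adjusted p = 0.0397). Neither gene overlapped between the groups. ATF4 and CHOP stress genes gave 2 of 18 lower, 0 higher and a median of -0.08. One of them was the stress protein gene Nupr1, also strongly expressed in acinar cells, with 61.7, 82.9 and 102 CPM in KO and 234, 138 and 148 CPM in Het islets (-1.08 ± 0.29, limma adjusted p = 0.0376), and its value with the acinar covariate was -0.24. The other was the serine enzyme Shmt2 (-0.12 ± 0.05). Antioxidant genes split, 2 higher and 3 lower of 24, with peroxiredoxin Prdx4 at 0.21 ± 0.06 and glutathione reductase Gsr at -0.14 ± 0.04.

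Of 23 apoptosis genes and of 27 proliferation genes 0 had an unadjusted p under 0.05 in either direction, with Bcl2l11 (BIM) at -0.21 ± 0.11 and the mitotic kinase Aurka at 0.46 ± 0.25. Immediate early genes gave 1 of 22 lower, Egr1 with 52.7, 34.99 and 63.4 CPM in KO and 82.9, 75.98 and 55.6 CPM in Het islets (-0.50 ± 0.22), 0 higher, 20 negative estimates and a median of -0.22 (-0.35 without KO replicate 3). Cholesterol synthesis gave 3 of 20 higher and 0 lower, Msmo1 and the sterol sensor Insig1 (0.27 ± 0.10) among them. Collagen and matrix genes gave 2 of 25 lower, the stromelysins Mmp3 and Mmp10, and 0 higher, against 5.4% and 3.06% of all genes tested. Mmp3 had 66.8, 19.6 and 49.3 CPM in KO and 128, 233 and 79.3 CPM in Het islets, with KO replicate 2 lowest and Het replicate 2 highest (-1.69 ± 0.59), and Mmp10 stood at -1.21 ± 0.49.

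The untreated pair asked the same question without cytokines. There edgeR called 1 gene (0.00569%), Dsg3, with 1581 lower (8.99%) and 1039 higher (5.91%) at an unadjusted p under 0.05, and non-overlapping groups for 1112 lower (6.32%) and 892 higher (5.07%). DESeq2 called 308 (1.75%), 269 lower and 39 higher, and limma 2279 (13%), 1267 lower and 1012 higher. Without untreated Het replicate 1 edgeR called 1926, and without any one of the other 5 untreated KO and Het libraries it called 0. Genes lower in KO at an unadjusted p under 0.05 in both treatments numbered 342, which is 36.0% of the lower genes with cytokines and 21.6% of those untreated. Genes higher in both numbered 59, or 11.0% and 5.68%. The 2 treatments share no library, but the labels do not say whether they share mice.

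Untreated, acinar markers took 0.198%, 0.303% and 0.227% of counts in KO and 0.457%, 0.572% and 0.677% in Het libraries (exact permutation p = 0.1, the smallest possible), and 28 of 34 were lower and 1 higher, with a median of -0.94. Duct markers had 14 of 16 lower and a median of -1.04, which was -0.71 with the acinar level as covariate. Among them Muc1, the cell surface mucin, stood at -1.28 ± 0.23 untreated and -0.66 ± 0.22 with cytokines. NF-kB targets had 14 of 36 lower and a median of -0.42, which was -0.97 without KO replicate 3 and -0.21 without Het replicate 3. Interferon targets had 12 of 36 lower and 2 higher with a median of -0.36, which was -0.89 without KO replicate 3 and -0.25 without KO replicate 2. Acute phase genes had 10 of 15 lower and 1 higher with a median of -1.76. Orm1 stood at -2.27 ± 0.96 there. Endocrine lists were on the higher side untreated too. Medians were 0.26 for beta and 0.25 for alpha cell markers, 0.24 for glucose sensing genes and 0.20 for beta cell transcription factors. In these lists edgeR called 0 members, and limma called 2, 2, 5 and 6, all higher. The integrin Itga6 (-0.58 ± 0.10) and the p38 kinase Mapk13 (-1.31 ± 0.23) were further lower genes of small p untreated, and stood at -0.20 ± 0.10 and -0.42 ± 0.23 with cytokines. On the higher side untreated were the ETS factor Etv5 (0.36 ± 0.06) and the creatine synthesis enzyme Gatm (0.44 ± 0.09), which with cytokines stood at -0.05 ± 0.07 and 0.18 ± 0.09.

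Whether the genotype difference itself changed with cytokines was tested as an interaction. By edgeR 0 genes passed (0%), with a smallest adjusted p of 0.801, 531 lower (3.02%) and 491 higher (2.79%) at an unadjusted p under 0.05, while DESeq2 called 7 (0.0398%) and limma 0 (0%). Without untreated Het replicate 1 edgeR called 5. The smallest p-values belonged to Cmpk1 (0.40 ± 0.07, unadjusted p = 5.06e-05), Rreb1 (-0.37 ± 0.08, unadjusted p = 0.000219) and Gmfb (0.42 ± 0.09, unadjusted p = 0.000232). Cmpk1 stood at 0.22 ± 0.05 with cytokines and -0.18 ± 0.05 untreated, Rreb1 at -0.33 ± 0.06 and 0.04 ± 0.05, and Gmfb at 0.24 ± 0.06 and -0.18 ± 0.06. For the lists whose medians differed between treatments, such as the NF-kB and acute phase genes, no list difference was tested.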

How the data were processed

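Per the labels' protocols, a NovaSeq instrument sequenced the islet RNA. The table the authors deposited holds raw counts of reads per gene, whole numbers with 22990164 to 29946680 reads per library, and 6 groups of 3 libraries were formed from the labels. Per the submitters' processing notes, which give no roles, the tools included STAR 2.5.2a and featureCounts 1.6.2, with DESeq2 1.30.0, cutadapt 1.16 and FastQC 0.11.7 also named, and the build was GRCm38. The use of strand in counting is not given in the sources, which makes reads of overlapping genes less certain. Coordinates are from GENCODE M21.

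From these counts, edgeR 4.0.16 in R 4.3.3 gave p-values, log2 fold changes and CPM. Other fits used DESeq2 1.42.0 or limma 3.58.1. Permutation tests used scipy 1.17.1 and figures matplotlib 3.10.9 under Python 3.11.15. Genes were kept by filterByExpr with a count minimum of 10 and libraries scaled by TMM. One quasi-likelihood model with 1 mean per group used all 18 libraries (12 residual degrees of freedom), since the groups then share 1 estimate of spread. Adjustment by Benjamini and Hochberg's method ran over 17590 genes, with a threshold of 0.05 and intervals of 95%. The scripts were first tested on simulated data.

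The named genes were Slc30a8 and, with at least 2 CPM on average, groups without overlap and no placeholder symbol, those that passed, or else the genes of smallest p up to 10 per direction with cytokines and 5 untreated. The 3 of smallest p in the interaction, up to 2 members of smallest p per list, and fixed genes such as Ins2 and Nos2 were added. Further list members were named in the text after their values were seen. Some genes that the rule takes, and the Schwann cell list, are not reported here. The comparison and the lists were chosen with earlier results of these data known. Alternatives were RLE scaling, no filter, the genes of a second deposited count table, limma voom with quality weights, DESeq2, a fit of only the groups compared, the acinar level as covariate, blocks on replicate numbers and the omission of each library in turn. The block on the authors' metadata number and the omission of libraries outside each comparison were added after seeing the data.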

Additional observations from a re-analysis of the deposited data

How the results depend on the processing

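The count of genes called between KO and Het islets with cytokines, 0 in the main analysis, was 56 with DESeq2, 153 with limma voom, 2 without the low-count filter and 0 to 2 when 1 library was left out. It stayed at 0 with RLE factors, the authors' filtered gene set, only the groups compared or the acinar covariate. Untreated, the count of 1 became 308 with DESeq2, 2279 with limma, 44 without the filter and 0 with the acinar covariate or only the groups compared, and ran from 0 to 1926 with 1 library left out. The interaction count of 0 became 7 with DESeq2 and ran from 0 to 5 with 1 library left out. Slc30a8 with cytokines passed with DESeq2 (-0.94) and limma (-0.93). The difference in acinar share between KO and Het islets with cytokines, -0.237 percentage points, ran from -0.278 to -0.181 with 1 library left out and was -0.132 without Ctrb1. No pairing of samples was assumed from the replicate numbers of the descriptions. The deviations of same-numbered KO and Het libraries correlated at 0.0701, -0.483 and -0.513 with cytokines and at 0.649, -0.078 and 0.59 untreated. Not all pairs were above 0.1. With 3 libraries per group these values cannot decide whether the numbers pair samples, and treated libraries were not set against untreated ones. As a replicate block the description numbers gave 0 calls with cytokines, 1 untreated and 0 for the interaction. The authors' metadata numbers gave 0, 1 and 0, the title numbers gave 1, 4 and 0, and a block within genotype gave 0 for the interaction. Estimates of genes that were not called changed sign with the acinar covariate for Mt1 (0.15), Mt2 (0.24), Mgst1 (0.061), Pyy (-0.086), Trac (-0.27), Ins2 (-0.024), Gcg (-0.021), Sst (-0.024), Nos2 (-0.0096), Csf3 (-0.061), Cxcl10 (-0.21) and Ndufa9 (-0.015), and with the title-number block for Csf3 (-0.057). With 1 library left out the estimates also changed sign, from -0.010 to 0.17 for Ins1, -0.0017 to 0.17 for Ins2 and -0.0019 to 0.29 for Nos2, each lowest without KO replicate 2 of the cytokine-treated islets, and from -0.11 to 0.17 for Csf3 and -0.18 to 0.42 for Cxcl10, lowest without Het replicate 2. The cause was not tested. Having 3 libraries per group limits what can pass, and genes under 1 CPM such as Slc30a3 rest on few reads.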

Other observations

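Genes near Slc30a8 travel with its mutant allele when a knockout is bred onto another strain, so the genes within 5000000 bases of it on chromosome 15 were read as a group. At an unadjusted edgeR p under 0.05, 3.06% of all genes tested were higher and 5.4% lower in KO than in Het islets with cytokines. Of the 24 tested in this group, 0 were higher and 2 lower, with a median of -0.10. The lower ones were Mtbp, which encodes a partner of the p53 regulator MDM2 (-0.27 ± 0.12), and Aard (-1.61 ± 0.75). Untreated, 1 of the 24 was higher and 4 were lower, against 5.91% and 8.99% of all genes tested. Mtbp stood at -0.15 ± 0.11 and Aard at -0.31 ± 0.42 there.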
